A study of Caenorhabditis elegans with 2 samples.

Results

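Of the 89784 peaks that were ranked jointly from both replicates, 358 had their summit nearest to the 5' end of a small nucleolar RNA (snoRNA) gene and within 500 bp of it. All 46890 annotated genes competed for the nearest 5' end, so position alone chose these peaks. They lay at 266 of the 346 annotated snoRNA genes, with 1 peak at 184 genes, 2 at 72 and 3 at 10, while 80 genes had none. The peaks came from chromatin immunoprecipitation followed by sequencing (ChIP-seq) of HINF-1, the worm relative of the human histone gene regulator HINFP. The worms were whole Caenorhabditis elegans young adults, 65 hours after synchronisation by L1 starvation, of strain RW12232, in which a CRISPR insertion (allele st12232) fused TY1, EGFP and 3xFLAG to HINF-1 (gene F39B2.1, hinf-1). Their sex was not collected. The antibody was against GFP, the sonicated chromatin had a labelled size range of 200 to 800, and 2 biological replicates formed the only group. Each result is therefore a description of 1 condition, and the signal of whole animals cannot be assigned to a tissue.

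SnoRNAs guide the chemical modification of other RNAs. Box C/D snoRNAs direct 2'-O-methylation and box H/ACA snoRNAs direct pseudouridylation, mostly of ribosomal RNA, each in a particle with a fixed set of proteins. Some snoRNA genes sit in introns of host genes and are made from the host's transcript, and others have a promoter of their own. Small nuclear RNA (snRNA) genes carry a proximal sequence element upstream of the start, whereas transfer RNA (tRNA) genes carry box A and box B inside the gene, where the factor TFIIIC binds.

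Of the 358 peaks at snoRNA genes, 38 (10.6%, 95% Wilson interval 7.83 to 14.2) were in the conservative list, the thresholded list made from the true replicates. At snoRNA genes these were exactly the 38 peaks with a deposited reproducibility value of 2 or more. Elsewhere the list and that limit differ, for a reason not given in the sources used here: of 696 ranked peaks at the limit or above, 129 were not in the list. Over all ranked peaks that share was 0.642%, and over ranked peaks within 500 bp of any gene's 5' end it was 1.24%. By the limit alone these shares would be 0.775% and 1.26%. The share in the conservative list was 12.4% (7.38 to 20.04) for 105 peaks at snRNA genes, 6.60% (4.69 to 9.21) for 470 at tRNA genes and 1.15% (1.00 to 1.33) for 16805 at protein-coding genes. The interval of snoRNA genes overlaps those of snRNA and of tRNA genes. The 38 conservative peaks were at 38 different snoRNA genes, and 14 of these genes had a further peak outside the list. The optimal list gave 43 of 358 (12.01%), against 0.712% over all ranked peaks and 1.38% over those near a 5' end. The thresholded lists of the single replicates gave 14 for replicate 1 (3.91%, against 0.234% and 0.464%) and 21 for replicate 2 (5.87%, against 0.307% and 0.61%).

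The conservative peaks fell into 3 kinds by the sequence before the snoRNA gene. At 16 of the 38 conservative peaks the snoRNA gene carried the letters AACCCG, 5 free bases and TGTCGG, called the split element below, upstream on its own strand. At 9 others it carried a pair of letter runs like those inside tRNA genes, but in front of the snoRNA gene. The box A run is TGGC, 2 free bases and AGTGG, and the box B run is GGTTC, 1 free base, A, 2 free bases and CC. The other 13 carried neither. These letters were picked after the sequences at the conservative peaks had been seen, so a higher share there than at the other peaks is partly fixed by that choice and was not tested. A match was called from 150 bp before to 10 bp after the 5' end, with up to 2 mismatches in the 12 fixed letters of the split element, and up to 2 in each box with the boxes 30 to 75 bp apart.

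The sequences around the snoRNA 5' ends of 6 of the 9 strongest conservative peaks show both elements, together with 2 more chosen after their values were seen because they show the split element in a second copy of the T19C4.11 family and in an RNA of another kind. Each run is 105 bases of the RefSeq WBcel235 genome (ce11), 5' to 3' on the gene's strand. It covers the 100 bases before the gene and its first 5. Capitals mark the fixed letters of the split element or the whole of box A and box B, and C51F7.4, with neither, has none.
ZK994.7 (V:8500479-8500583, plus strand): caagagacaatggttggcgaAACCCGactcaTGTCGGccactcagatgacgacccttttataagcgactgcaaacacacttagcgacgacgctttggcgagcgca
Y53F4B.47 (II:15025889-15025993, minus strand): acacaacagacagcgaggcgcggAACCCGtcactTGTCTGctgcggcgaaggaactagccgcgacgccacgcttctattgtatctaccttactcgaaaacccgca
T19C4.11 (V:11175702-11175806, minus strand): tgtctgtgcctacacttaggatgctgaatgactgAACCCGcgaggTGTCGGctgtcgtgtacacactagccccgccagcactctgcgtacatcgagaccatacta
Y67A10A.14 (IV:14327117-14327221, minus strand): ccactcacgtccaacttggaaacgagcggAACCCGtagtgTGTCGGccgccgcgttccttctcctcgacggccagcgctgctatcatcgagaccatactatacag
smy-2 (IV:9511462-9511566, minus strand): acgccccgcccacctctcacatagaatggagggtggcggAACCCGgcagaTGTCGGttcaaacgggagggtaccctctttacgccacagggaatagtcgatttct
Y75B12B.12 (V:15191089-15191193, minus strand): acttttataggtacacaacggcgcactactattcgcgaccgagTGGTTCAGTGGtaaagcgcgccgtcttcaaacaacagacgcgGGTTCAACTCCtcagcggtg
W03C9.9 (II:11960798-11960902, plus strand): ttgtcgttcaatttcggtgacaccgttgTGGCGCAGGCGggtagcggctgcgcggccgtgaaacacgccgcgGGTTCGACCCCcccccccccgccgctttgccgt
C51F7.4 (V:12303499-12303603, plus strand): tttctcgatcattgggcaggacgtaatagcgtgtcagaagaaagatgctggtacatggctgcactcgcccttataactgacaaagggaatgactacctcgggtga

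The split element was printed without a mismatch in ZK994.7, T19C4.11, Y67A10A.14 and smy-2 and with 1 mismatch in Y53F4B.47. In Y75B12B.12 box A had 1 mismatch and box B 0, and in W03C9.9 they had 2 and 0. T19C4.11 and Y67A10A.14 are 2 of 4 conservative snoRNA genes of 80% or more sequence identity, with F25H2.15 and F59C6.15, and all 4 carried the split element. The annotation has 5 genes in that family. F43A11.8, the member not among these 4, also carried the split element. Its peak was outside the conservative list, with a joint signal value of 44.5 and a deposited reproducibility value of 1.10. Such copies share sequence, so they are not independent cases. The annotation calls smy-2 a snoRNA gene, although SmY RNAs are small nuclear RNAs tied to nematode trans-splicing.

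**Figure D1:**
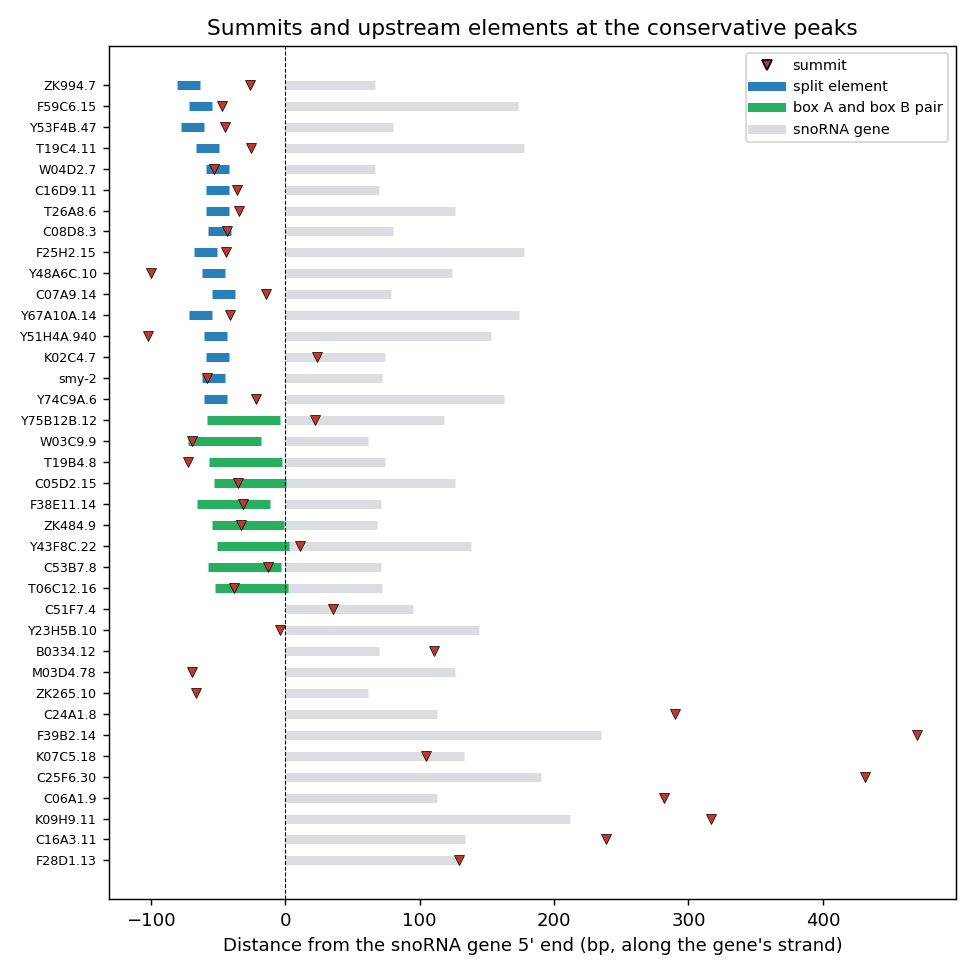
The plot shows the 38 conservative peaks, 1 row each, with the distance in bp from the snoRNA 5' end along the gene's strand on the x axis; triangles are summits, blue bars split elements, green bars box A and box B pairs and grey bars the snoRNA genes. The 25 peaks at genes with an element have their summits between 102 bp upstream and 24 bp downstream, whereas 9 of the 13 without an element have theirs more than 100 bp downstream.

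The split element occurred upstream of 40 of 346 snoRNA genes (11.6%), against 63 of 129 snRNA genes (48.8%), 12 of 30 spliced leader genes (40%) and 0.636% of all genes. Among protein-coding genes it was 57 of 19973 (0.285%), and among tRNA genes 0.817%. Some of the spliced leader genes, which were taken by name, are also counted in another of these classes. The pair occurred upstream of 48 snoRNA genes (13.9%), 0.431% of protein-coding genes and 0.595% of all genes. With the same letters, 593 of 612 tRNA genes (96.9%) carried the pair inside the gene. One snoRNA gene carried both elements upstream, with 3 peaks, none of them conservative.

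By gene, 16 of the 39 snoRNA genes with the split element alone had a conservative peak (41.0%), as did 9 of 47 with the pair alone (19.1%) and 13 of 259 with neither (5.02%). By peak, 16 of 56 peaks at genes with the split element were conservative (28.6%, Wilson 18.4 to 41.5). The share was 15.5% (8.38 to 26.9) for 58 peaks at genes with the pair and 5.39% (3.18 to 9.01) for 241 at genes with neither. The last value exceeds the 1.24% of ranked peaks near any 5' end. Because the letters were chosen at the conservative peaks, these shares by element are partly fixed, by gene and by peak. No peak was assigned to 1 of the 39 genes with the split element, 3 of 47 with the pair and 76 of 259 with neither. Counting every ranked summit within 500 bp, also those nearer to another gene, 0, 2 and 47 of these genes were without one. Among genes with the split element, a conservative summit lay within 500 bp at 18 of 40 snoRNA genes, 13 of 63 snRNA genes, 5 of 12 spliced leader genes and 0 of 57 protein-coding genes. Over all genes of each class, with or without the element, such a summit lay near 13.6% of snoRNA, 12.4% of snRNA, 23.3% of spliced leader and 1.32% of protein-coding genes. The 57 protein-coding genes are too few to tell 0 from the 1.32% of their own class. The difference between classes was not tested. These counts take every summit, including summits nearer to another gene. Spliced leader genes were taken by name, and some of the 5 are also in the snoRNA, snRNA or tRNA class. Outside those classes only 2 genes with the split element had such a summit.

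**Figure D2:**
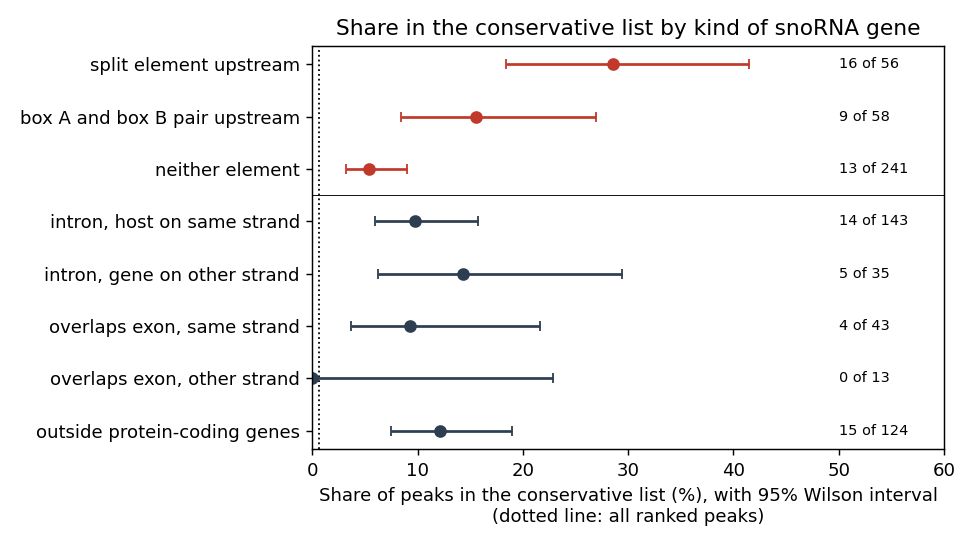
The plot gives the share of peaks at snoRNA genes that were in the conservative list, in percent on the x axis, by upstream element (red, above the line) and by place of the snoRNA gene (dark blue); bars are 95% Wilson intervals and the dotted line is the 0.642% of all ranked peaks. The share is 28.6% with the split element and 5.39% with neither, while the intervals of all 5 places overlap.

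The letters were chosen from sequences at the conservative peaks, so their presence near those summits is partly fixed by that choice. Within 50 bp of the summit, on either strand, the split element was present at 15 of the 38 conservative peaks (39.5%) and 17 of the other 320 (5.31%), against 1.23% of all ranked peaks. The pair was present at 7 (18.4%) and 6 (1.88%), against 1.19%. Over all 576 conservative peaks, those at snoRNA genes included, the split element was present at 5.03% and the pair at 6.25%. These counts need the whole element within 50 bp of the summit, whereas the next ones take the distance from the summit to the element's centre, at genes that carry it upstream. At the 16 conservative peaks whose gene carried the split element, its centre was at position -52.5 from the 5' end at the median (-72 to -46). The summit was 23 bp from that centre at the median, and 15 of 16 summits were within 50 bp of it. Among the 40 other peaks at genes with the split element, 11 summits were within 50 bp. Some of these 40 were further peaks at genes that also had a conservative peak, so this contrast is partly built in. For the pair, the centre was at position -29.5 at the median, with 8 of 9 conservative summits and 16 of 49 other summits within 50 bp.

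The replicates gave the same order of the 3 kinds of gene. For the strongest peak of each gene in the joint list, the median signal value was 46.2 with the split element (38 genes), 39.8 with the pair (44 genes) and 25.3 with neither (183 genes). In replicate 1 the medians were 22.7, 19.6 and 14.3 in that order, over 35, 35 and 129 genes. In replicate 2 they were 30.2, 24.7 and 18.5, over 35, 37 and 126 genes. The quartiles overlapped between neighbouring kinds in both replicates. The letters were chosen from peaks that both replicates share, so neither replicate is independent of that choice.

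**Figure D3:**
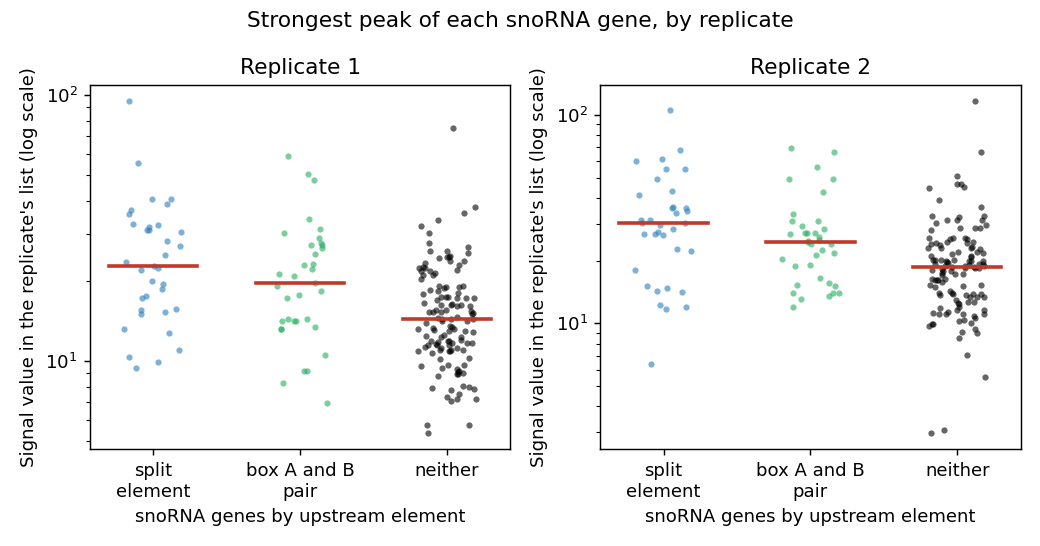
Each point is 1 snoRNA gene, shown by its strongest peak in the joint list, with the genes split by upstream element. The log y axis gives the signal value of the overlapping peak in the ranked list of replicate 1 (left) or replicate 2 (right). Genes without such a peak in a replicate are left out there, and red lines are medians. The medians are 22.7, 19.6 and 14.3 in replicate 1 and 30.2, 24.7 and 18.5 in replicate 2, and the clouds of points overlap.

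The strongest peak was at ZK994.7 (peak V:8500515-8500594), a snoRNA gene in an intron of the peroxidasin gene pxn-1. Its signal value was 200.6 in the joint list, 94.8 in replicate 1 and 105.1 in replicate 2, with the summit 26 bp upstream of the 5' end. The next was at C51F7.4 (V:12303621-12303689), which overlaps an exon of frm-7 on the same strand. It had 184.4 in the joint list, 75.1 in replicate 1 and 115.9 in replicate 2. Its summit lay 36 bp inside the snoRNA gene, and it was the strongest peak without either element. Both peaks were in the thresholded lists of both replicates.

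Among the other conservative peaks with the split element, F59C6.15 (I:10517162-10517220) had a signal value of 125.8 in the joint list, 55.7 in replicate 1 and 68.1 in replicate 2. It lay outside protein-coding genes, with the summit 47 bp upstream. Y53F4B.47 (II:15025823-15026052) had 100.05, with 40.6 in replicate 1 and 61.2 in replicate 2. T19C4.11 (V:11175616-11175845), in an intron of the G protein alpha subunit gene gpa-1, had 93.6, with 32.4 and 60.4 in replicates 1 and 2. In each of these 3 the value was higher in replicate 2. The scaling of the lists is not stated, so this difference is not interpreted. W04D2.7 in an intron of the innexin gene inx-11 had 92.2 in the joint list, C16D9.11 in an intron of rol-3 had 86.8, T26A8.6 had 78.3, C08D8.3 in an intron of C08D8.1 had 75.5 and F25H2.15 had 71.7. All of these summits were 25 to 53 bp upstream of the snoRNA 5' end.

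With the box pair upstream, Y75B12B.12 (V:15190956-15191185) had 118.0 in the joint list, 50.6 in replicate 1 and 69.7 in replicate 2. W03C9.9 (II:11960714-11960943) had 116.8, with 58.9 in replicate 1 and 56.2 in replicate 2. T19B4.8 (I:5706859-5707088) had 114.2, with 48.1 and 66.04 in replicates 1 and 2. These 3 genes were outside protein-coding genes and their peaks were in the thresholded lists of both replicates. C05D2.15 in an intron of madf-11 had 72.7 in the joint list. F38E11.14, in an intron of the cyclic nucleotide-gated channel gene cng-3, had 68.6 and 30.2 in replicate 1, with no ranked peak in replicate 2. It was the only one of the 38 without a ranked peak in both replicates. No summit of the 38 was within 500 bp of a tRNA 5' end, and 2 of the other 320 were.

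The other strong peaks had neither element. Y23H5B.10 (I:2514200-2514429), outside protein-coding genes, had 107.8 in the joint list, 38.0 in replicate 1 and 66.5 in replicate 2, with the summit 4 bp upstream. B0334.12, inside an intron of the potassium channel gene twk-5 on the other strand, had 92.4. M03D4.78 had 72.0 and ZK265.10 had 71.3, both outside protein-coding genes, and C24A1.8 in an intron of elf-1 had 66.8. The summits of M03D4.78 and ZK265.10 were 69 and 66 bp upstream, and those of B0334.12 and C24A1.8 were 111 and 290 bp downstream. Of the 9 conservative summits more than 100 bp downstream, 5 lay in an exon of a protein-coding gene. Summits that far from the 5' end are assigned to a snoRNA gene by the nearest 5' end only.

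**Figure D4:**
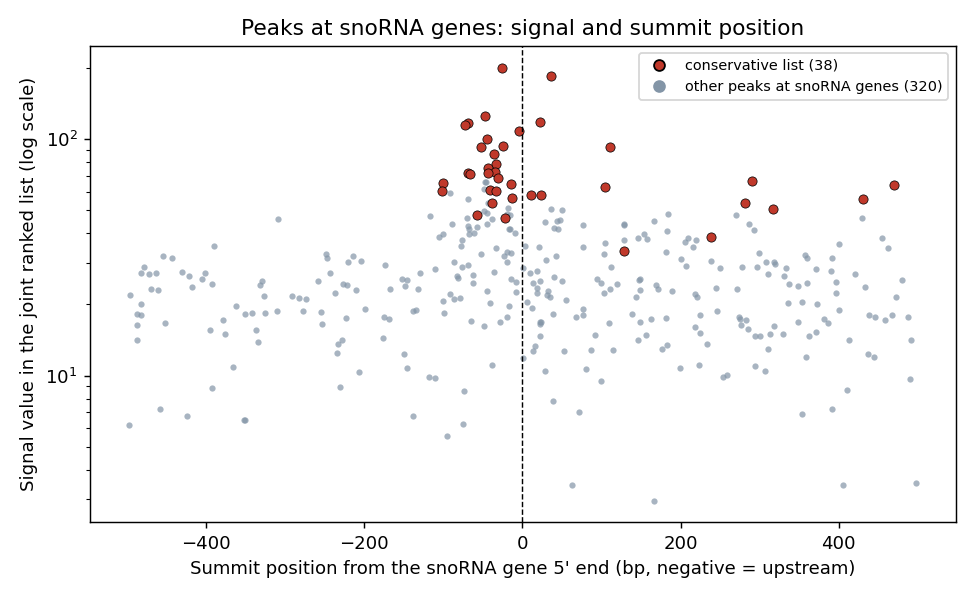
Each point is 1 of the 358 peaks, with the summit position from the snoRNA 5' end in bp on the x axis (negative is upstream) and the joint signal value on a log y axis; red points are the 38 conservative peaks and grey points the other 320. Of the conservative summits 24 lie from 100 bp upstream to the 5' end, where 60 of the other summits lie.

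Conservative summits were nearer to the 5' end. They were within 100 bp of it at 28 of 38 peaks (73.7%, Wilson 57.99 to 85.03), against 110 of 320 other peaks (34.4%, 29.4 to 39.7). The median distance was 44.5 bp for conservative and 182.5 bp for other peaks. The other peaks include further peaks at 14 genes that also had a conservative peak, so the positions in the groups are not independent. The summit was upstream of the 5' end at 25 of 38 (65.8%, 49.9 to 78.8) and at 147 of 320 (45.9%, 40.6 to 51.4), and these intervals overlap slightly. From 100 bp upstream to the 5' end there were 63.2% of conservative and 18.8% of other summits. More than 100 bp downstream there were 9 of 38 and 123 of 320, and in a protein-coding exon 13.2% and 31.6%.

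Place in a host gene did not differ beyond the intervals. Of the conservative peaks 14 (36.8%, Wilson 23.4 to 52.7) were at snoRNA genes inside an intron of a protein-coding gene on the same strand, against 129 of the other 320 (40.3%, 35.1 to 45.8). Outside any protein-coding gene there were 15 (39.5%, 25.6 to 55.3) and 109 (34.1%, 29.1 to 39.4). A further 5 conservative peaks were at snoRNA genes in an intron on the other strand, 4 overlapped an exon on the same strand, and none of the 13 peaks at genes overlapping an exon on the other strand was conservative (0 to 22.8%). Within same-strand introns, 6 of 16 peaks with the split element were conservative, as were 3 of 27 with the pair and 5 of 100 with neither. Outside protein-coding genes these counts were 7 of 32, 5 of 19 and 3 of 73. Overlap with an exon on the same strand never came with an element, over 39 snoRNA genes.

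Hosts that code for ribosomal proteins or translation factors, whose introns are classic places of snoRNA genes, formed a separate group. None of the 21 snoRNA genes in an intron of an rpl, rps, rla, eef or eif gene carried either element, against 33 of the 124 in other hosts. Of the 17 peaks there 2 were conservative (11.8%), against 12 of 126 in other hosts (9.52%), with median joint signal values of 33.1 and 24.5. The 2 were C16A3.11 in rps-13, with 38.7, and F28D1.13 in rps-23, with 33.7, the lowest of the 38. Their summits were 239 and 129 bp downstream of the snoRNA 5' end, and that of C16A3.11 lay in an exon. F28D1.13 ranked 5910 by joint signal, yet it had 34.0 in replicate 1 and 28.1 in replicate 2 and was in the thresholded list of replicate 1. The third of the low conservative peaks was Y74C9A.6 with 46.4 in the joint list, 25.1 in replicate 1 and 34.7 in replicate 2, outside protein-coding genes and with the split element.

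Signal and reproducibility chose the conservative list, so their differences are given without a test. The median joint signal value was 67.7 (33.7 to 200.6) for the 38 conservative peaks and 23.0 (2.96 to 66.1) for the other 320, a ratio of 2.94, with 18.5 over all ranked peaks. The irreproducible discovery rate (IDR) measures how well a peak's rank repeats, and its deposited form is −log10, so higher means more reproducible. The median value was 2.53 (2.01 to 4.13) for the conservative peaks and 0.259 (0.0782 to 1.998) for the others, and none of the others reached 2. Just inside that limit was C25F6.30 with 2.005, and just outside was ZK20.9 with 1.998. Signal alone did not fully separate them, since 64 of the other 320 had a joint signal at or above the 33.7 of F28D1.13. That peak was the lowest of the 38, and 0 of the other 320 reached the conservative median of 67.7.

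Both replicates ranked the conservative peaks high, which is partly fixed because the list was chosen on ranks that repeat. The median rank was 419.5 in replicate 1 (38 peaks) and 423 in replicate 2 (37 peaks), against 16163 (209 peaks) and 14783 (195 peaks) for the others that had a peak there. In replicate 1 the median signal value was 31.1 for conservative and 13.2 for other peaks, and in replicate 2 it was 38.8 and 17.3. Of the conservative peaks 22 were among the 1000 strongest in both replicates, against 0 of the other 320. Of the 38, 12 were in the thresholded list of replicate 1, 17 in that of replicate 2, 8 in both and 17 in neither. The last 17 rest on the joint ranking.

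**Figure D5:**
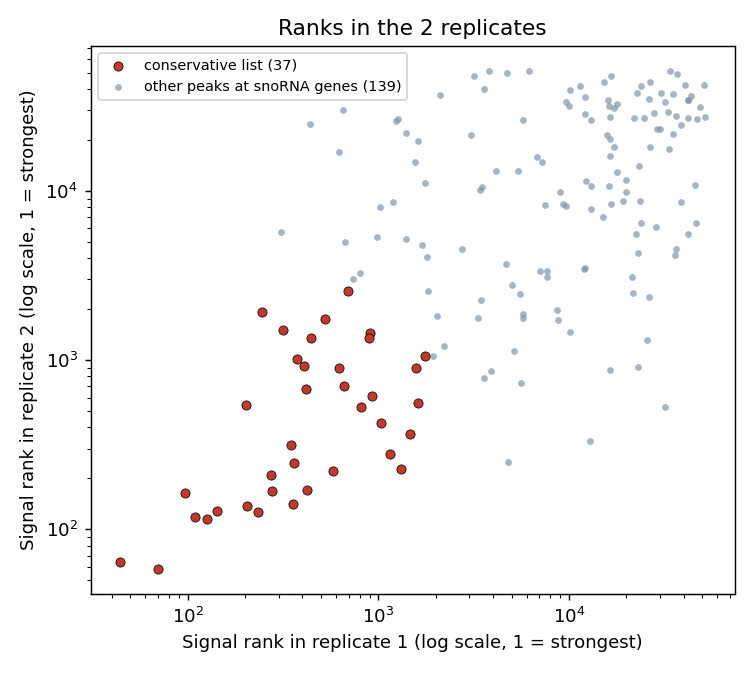
Each point is a peak at a snoRNA gene that has a ranked peak in both replicates, with its signal rank in replicate 1 on the x axis and in replicate 2 on the y axis, both log scales with 1 the strongest; red points are 37 conservative peaks and grey points 139 others. The median ranks of the conservative peaks are 419.5 (all 38) and 423, and no grey point is within the first 1000 on both axes.

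Of the 10 strongest peaks outside the conservative list, 3 had no ranked peak in 1 of the replicates. C41C4.11 had a joint signal value of 66.1 and 49.4 in replicate 2, but no ranked peak in replicate 1, and its IDR value was 1.40. C27H6.5, in an intron of unc-41, had 61.6 in the joint list and 44.7 in replicate 2, also with no ranked peak in replicate 1. T08B6.64 had 53.8 in the joint list and 39.1 in replicate 1, with no ranked peak in replicate 2. T02E1.9 had 65.6 in the joint list, with 17.9 in replicate 1 and 46.4 in replicate 2, and T03F7.8 had 55.9, with 14.1 and 42.5. C10C6.8 went the other way, with 58.9 in the joint list, 34.3 in replicate 1 and 21.7 in replicate 2. ZK20.9 had 53.4, T27A3.9 51.1, R08C7.19 50.5 and M7.15 50.3, all with a ranked peak in both replicates. Of these 10, C41C4.11, C10C6.8 and T03F7.8 carried the pair and T08B6.64 the split element.

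The base composition of the 2 groups differed. Median GC content was 48.7% for conservative and 41.3% for other peaks. A run of 6 T was present around 1 of 38 conservative summits and 79 of 320 others, against 30.2% of all ranked peaks. The box B letters GTTCNANNC, searched on both strands and overlapping the box B of the pair, were within 50 bp of 9 conservative summits (23.7%) and 23 others (7.19%), against 4.22% of all ranked peaks. The HINFP core CGTCCG was present at 2 conservative peaks (5.26%) and 7 others (2.19%), against 1.49% of all ranked peaks. The snoRNA box C letters TGATGA were present at 3 (7.89%) and 38 (11.9%), against 8.61%. In the same order, GGTTCGA was present at 4 (10.5%) and 5 (1.56%), against 1.01%. CACGTG was at 2 (5.26%) and 7 (2.19%), against 2.20%, and CGCGCGC at 2 (5.26%) and 7 (2.19%), against 0.586%. TTTCGCGC was at 0 and 1 (0.3125%), against 0.460%, and GGGACACA at 0 and 0, against 0.174%. TATAA was at 4 (10.5%) and 52 (16.25%), against 16.1%. The box D letters CTGA were at 18 (47.4%) and 204 (63.75%), against 55.3%. The median share of 31-base words unique in the genome was 1 in both groups, and the share was under 0.9 at 6 of 38 conservative and 30 of 320 other peaks. All 6 of these conservative peaks were at genes with the split element, which is 6 of 16, against 0 of the other 22. Among peaks with a share of 0.9 or more, 10 of 40 at genes with the split element were conservative (25%). The lowest share among conservative peaks was 0.61, at T19C4.11. The part of GC content in these differences was not tested.

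Genes for the proteins of snoRNA particles and their assembly were looked up for comparison. Of 12 such genes 10 had a ranked peak within 500 bp of the 5' end, as did 66.6% of all protein-coding genes, and 1, nola-3, had a conservative one (over all protein-coding genes that share was 1.32%), with a signal value of 72.0 and an IDR value of 2.79. It codes for the worm NOP10, a protein of the H/ACA particle. Among the other H/ACA proteins Y48A6B.3 (NHP2) had 45.8, the dyskerin gene dkc-1 38.3 and garr-1 (GAR1) 28.2. Among C/D proteins the methylase gene fib-1 had 38.1, nol-56 37.6, nol-58 35.4 and snu-13 23.6. The cap methylase gene tgs-1 had 34.3 and the assembly factor gene ruvb-1 27.4, while ruvb-2 and dao-5 had no ranked peak. The gene nol-56 also holds 4 snoRNA genes, and the peak at 1 of them, K07C5.18, was conservative with 63.0 (chosen after its value was seen).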

How the data were processed

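The starting point was 8 peak lists on build ce11, which the authors deposited. Which peak caller the authors used is not given in the sources used here. The signal value (column 7) is the authors' own, with no stated scaling, so it was compared within a list only. Global IDR was deposited as −log10, where 2 stands for 0.01. A deposited peak list shows no read depth, so depth is unknown. Another 32 columns, which name no sample, and the control experiment were not used here.

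Summits were assigned to the nearest 5' end in Ensembl release 115 (WBcel235, the assembly that ce11 names). A ranked peak was conservative if it overlapped that list by 1 bp or more, so 576 ranked peaks stand for its 567. Coordinates are 1-based. Shares carry Wilson intervals at 95% confidence, which cover counting only. With 1 group, no test between conditions was possible, and peaks are not replicates. The members, lists and letters searched were chosen with earlier results of these data known. Named genes were those at the 20 strongest and 3 weakest conservative peaks, the 10 strongest other peaks, hosts whose names start with rpl, rps, rla, eef or eif, and protein genes of snoRNA particles, and others are marked or named as members of a count. The search for the split element was tested on simulated data with exact planted copies and no mismatch allowed. The search for the pair and the search with mismatches were not tested in this way. The software was Python 3.11.15 with pandas 2.3.3, numpy 2.4.6 and scipy 1.17.1, and figures were drawn in matplotlib 3.10.9.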

Additional observations from a re-analysis of the deposited data

How the results depend on the processing

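With windows of 250 and 1000 bp there were 232 and 548 peaks at snoRNA genes, against 358. Leaving out a replicate means taking the thresholded list of the other one, and this gave 14 to 21 peaks in place of 38, namely 21 without replicate 1 and 14 without replicate 2. An IDR value of 3 or more gave 12. The ratio of median signals, 2.94 in the report, was 3.10 at 1000 bp, 2.85 for the optimal list, 4.62 for the IDR value of 3, and 2.69 to 2.83 with 1 replicate left out. The share of summits upstream, 65.8%, was 64.3% to 85.7% with 1 replicate left out. With 1 mismatch allowed in each box, 5 conservative genes carried the pair, against 9. Without peaks of repeated sequence, 10 conservative genes carried the split element, against 16. The other 39 of 52 alternative values stayed within a set tolerance, which was 1.5 times for counts, the 95% Wilson interval of the reported value for shares of peaks or genes, and 1 SD for the signal ratio (between replicates) and for the share of unique words (between peaks). Within it, the host share was 50% with hosts on either strand (36.8% in the report), the upstream share was 75.8% at 250 bp and 75% for the IDR value of 3, and 12 conservative genes carried the split element without a mismatch. No paired analysis was possible because both replicates belong to 1 group. The element alternatives were added after seeing the data. The unknown depth and the unstated scaling of the lists limit any comparison of signal between replicates.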

Other observations

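Most places in the genome that matched the split element were not upstream of snoRNA genes. The element matched without a mismatch at 743 places. Of these, 19 were upstream of snoRNA genes, 13 upstream of snRNA genes and 711 elsewhere. These are counts and not rates, since far more sequence lay elsewhere than upstream of snoRNA genes. By gene, with up to 2 mismatches, the element was upstream of 11.6% of snoRNA genes and 0.636% of all genes. A conservative summit lay within 50 bp of 13 of the 19 matches at snoRNA genes (68.4%), 1 of the 13 at snRNA genes (7.69%) and 2 of the 711 elsewhere (0.281%). A ranked summit lay within 50 bp of 17, 5 and 142 of them in the same order. With up to 2 mismatches, 16 of 40 matches at snoRNA genes (40%), 5 of 61 at snRNA genes (8.20%) and 13 of 9446 elsewhere (0.138%) had a conservative summit within 50 bp. The letters were chosen at the conservative peaks of snoRNA genes, so the share there is partly fixed by that choice. Whether the matches elsewhere lie at genes that are not annotated was not tested.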
